A study of Mus musculus with 16 samples.

Results

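The expanded T cell clones of pancreatic tumors were examined, defined as productive T cell receptor β chain (TCRβ) rearrangements that each held 0.5% or more of all productive templates in their sample. A template is a starting molecule counted by the sequencing service, and a productive rearrangement is one that is in frame without a stop codon. By this definition 328 clones were expanded, out of 126344 productive rearrangements in 16 samples (0.260%). They comprised 313 different nucleotide rearrangements and 282 different CDR3 amino acid sequences. The clones were thus chosen by their share of templates, so shares are given here as a description and were not tested against those of the remaining 126016 rearrangements, 75.7% of which were seen as a single template. The limit fell at 36 templates (0.501%) in anti-PD-1 replicate 4, which 4 clones just met (Trbv13-2 with Trbj2-7, Trbv13-3 with Trbj2-5, Trbv19 with Trbj1-4 and Trbv12-1 with Trbj2-2). Just outside it were a clone of Trbv2 and Trbj2-3 in control replicate 1 (130 templates) and clones of Trbv13-1 and Trbj2-7 (206 templates) and of Trbv14 and Trbj2-1 (204 templates) in control replicate 2.

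All samples were T cells from tumors of female C57BL/6 mice injected subcutaneously with 500000 KPC-Luc cells, a luciferase-expressing mouse pancreatic ductal adenocarcinoma line. Treatment began 6 to 7 days later and ran for 10 days, with 10 µg of peptide each day and 200 µg of antibody every 3 days. Control mice received a scrambled peptide and isotype IgG, ANT008 mice received ANT008 (a peptide antagonist of the vasoactive intestinal peptide receptors, VIP-R) and IgG, anti-PD-1 mice received the scrambled peptide and anti-PD-1 antibody, and combination mice received ANT008 and anti-PD-1. There were 4 mice per group, with 1 sample from each. Per the labels T cells were enriched with CD90.2 magnetic beads to a purity of 80% to 85%, in a protocol that also covers another assay and that the study's methods do not repeat for the TCRβ sequencing, and no marker of other cells was measured, so the cell type was not checked beyond the presence of TCRβ rearrangements. The number in a sample's label equalled the animal number inside its deposited values in 3 of 16 samples, while the treatment named there matched the label in all 16. Per the labels RNA was extracted, while the study's text also names DNA, so a large template share cannot tell many cells of a clone from much RNA per cell. Productive templates per sample ranged from 7180 to 72588, with a median of 32564.

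A TCRβ chain is assembled in the thymus by joining a V, a D and a J gene segment. Bases are trimmed from the segment ends and non-templated bases are inserted at the joints, and the resulting CDR3 loop makes most of the contacts with antigenic peptide. The J segments lie in the clusters Trbj1 and Trbj2, each preceded by 1 D segment. Because several codons encode the same amino acid, an identical CDR3 can arise from different joining events, and CDR3 sequences carried by many individuals are called public. T cells that recognize antigen divide, so one rearrangement can come to occupy a large part of a repertoire.

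The CDR3 nucleotides of the clones that recurred most between mice are shown first, because several results below turn on them. Each is printed from the conserved cysteine codon at its 5′ end to the codon before the last residue, where the deposited rearrangements stop. Capitals mark the bases that differ between the expanded forms of the same CDR3. The 17 CDR3 amino acid sequences that were expanded in 2 or more mice are numbered from 1 to 17 by the number of mice, and clones are named by their V and J genes. CDR3 1, built from Trbv16 and Trbj2-7 with 15 residues, was expanded in 9 mice in 7 nucleotide forms that differed at 3 positions, each the last base of a codon:
CDR3 1 form 1: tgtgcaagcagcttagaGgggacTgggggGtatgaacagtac
CDR3 1 form 2: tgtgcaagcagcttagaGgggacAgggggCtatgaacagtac
CDR3 1 form 3: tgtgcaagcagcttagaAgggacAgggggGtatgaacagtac
CDR3 1 form 4: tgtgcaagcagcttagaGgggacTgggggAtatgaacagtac
CDR3 1 form 5: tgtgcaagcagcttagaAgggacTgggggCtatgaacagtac
CDR3 1 form 6: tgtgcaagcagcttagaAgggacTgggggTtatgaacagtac
CDR3 1 form 7: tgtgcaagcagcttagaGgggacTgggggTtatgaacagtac

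CDR3 2, built from Trbv13-3 and Trbj2-7 with 12 residues, was expanded in 8 mice in 6 forms that differed at 2 positions:
CDR3 2 form 1: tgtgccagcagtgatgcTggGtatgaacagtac
CDR3 2 form 2: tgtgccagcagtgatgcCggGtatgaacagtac
CDR3 2 form 3: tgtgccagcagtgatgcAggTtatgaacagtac
CDR3 2 form 4: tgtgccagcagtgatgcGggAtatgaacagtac
CDR3 2 form 5: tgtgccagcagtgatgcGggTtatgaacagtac
CDR3 2 form 6: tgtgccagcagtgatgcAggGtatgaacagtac

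CDR3 3, built from Trbv3 and Trbj1-5 with 13 residues, was expanded in 6 mice in 3 forms, and CDR3 4, built from Trbv29 and Trbj2-7 with 12 residues, in 5 mice in 5 forms, a different one in each mouse:
CDR3 3 form 1: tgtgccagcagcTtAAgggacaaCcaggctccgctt
CDR3 3 form 2: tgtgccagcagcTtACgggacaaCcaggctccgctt
CDR3 3 form 3: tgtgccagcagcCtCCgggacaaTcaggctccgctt
CDR3 4 form 1: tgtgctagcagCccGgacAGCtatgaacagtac
CDR3 4 form 2: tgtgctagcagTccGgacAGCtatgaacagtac
CDR3 4 form 3: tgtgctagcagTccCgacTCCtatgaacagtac
CDR3 4 form 4: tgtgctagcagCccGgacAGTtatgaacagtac
CDR3 4 form 5: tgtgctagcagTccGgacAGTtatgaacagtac

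CDR3 5, built from Trbv13-3 and Trbj2-1 with 14 residues, was expanded in 4 mice in forms that had at most 1 inserted nucleotide. CDR3 15 has the same genes and length, differs from it by the residue at position 5, and is shown for that reason:
CDR3 5 form 1: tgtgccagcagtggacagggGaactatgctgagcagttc
CDR3 5 form 2: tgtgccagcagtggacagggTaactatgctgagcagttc
CDR3 5 form 3: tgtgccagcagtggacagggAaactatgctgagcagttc
CDR3 15 form 1: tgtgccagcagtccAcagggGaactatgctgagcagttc
CDR3 15 form 2: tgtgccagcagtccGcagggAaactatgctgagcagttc

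The last of these comparisons concerns a CDR3 with many inserted bases. CDR3 6, built from Trbv2 and Trbj2-3 with 17 residues, carried 7 or 8 inserted nucleotides and was nevertheless expanded in 4 mice in 3 forms. CDR3 7, again of the same genes and length, was expanded in 3 mice and differs from it at the residue encoded by ttt, which is tat in CDR3 7:
CDR3 6 form 1: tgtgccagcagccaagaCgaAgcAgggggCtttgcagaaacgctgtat
CDR3 6 form 2: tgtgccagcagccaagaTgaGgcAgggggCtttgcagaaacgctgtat
CDR3 6 form 3: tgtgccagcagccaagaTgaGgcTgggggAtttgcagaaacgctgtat
CDR3 7 form 1: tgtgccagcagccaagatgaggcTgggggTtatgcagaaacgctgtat
CDR3 7 form 2: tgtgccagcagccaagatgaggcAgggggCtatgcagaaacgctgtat

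Expanded clones ranged from barely over the limit to 18.2% of productive templates, with a median of 0.998%. Of the 328 clones, 163 exceeded 1%, 31 exceeded 5% and 7 exceeded 10%. The clones over 10% lay in 6 mice of all 4 groups, with 2 of them in control replicate 4. The largest were a Trbv1 and Trbj2-2 clone in control replicate 2 at 18.2% (Wilson 95% interval 17.8% to 18.6%, counting error only), CDR3 11 (Trbv13-3, Trbj2-7) in combination replicate 3 at 18.0% and a Trbv14 and Trbj2-4 clone in anti-PD-1 replicate 1 at 17.5%. CDR3 13 (Trbv14, Trbj2-7) held 14.3% of control replicate 1, a Trbv13-1 and Trbj2-1 clone 13.8% of ANT008 replicate 3 and a Trbv13-2 and Trbj1-2 clone 12.7% of control replicate 4. A Trbv16 and Trbj2-7 clone followed it in control replicate 4 at 10.01%.

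The CDR3 nucleotides of the leading clones over 10% carried 1 to 5 inserted bases. Here capitals mark inserted bases, and the clone with the most insertions, a Trbv2 and Trbj2-2 clone of anti-PD-1 replicate 2 with 15, is given for contrast:
Trbv1 and Trbj2-2, control replicate 2: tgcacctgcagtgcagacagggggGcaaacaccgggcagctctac
CDR3 11, combination replicate 3: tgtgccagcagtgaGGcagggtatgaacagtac
Trbv14 and Trbj2-4, anti-PD-1 replicate 1: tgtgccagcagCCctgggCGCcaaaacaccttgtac
CDR3 13, control replicate 1: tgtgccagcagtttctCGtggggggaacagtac
Trbv13-1 and Trbj2-1, ANT008 replicate 3: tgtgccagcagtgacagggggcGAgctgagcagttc
Trbv13-2 and Trbj1-2, control replicate 4: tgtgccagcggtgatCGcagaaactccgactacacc
Trbv2 and Trbj2-2, anti-PD-1 replicate 2: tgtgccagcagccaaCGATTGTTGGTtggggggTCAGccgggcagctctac

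The leading clone of the remaining samples was smaller. A Trbv14 and Trbj2-7 clone led anti-PD-1 replicate 3 at 9.47% and a Trbv1 and Trbj2-2 clone led ANT008 replicate 2 at 8.82%. A Trbv3 and Trbj1-5 clone led anti-PD-1 replicate 4 at 7.58%, and clones of Trbv13-1 and Trbj2-2 and of Trbv5 and Trbj2-7 led combination replicates 1 and 2 at 7.31% and 7.20%. CDR3 2 led combination replicate 4 at 5.95%, CDR3 3 led ANT008 replicate 1 at 5.78% and a Trbv5 and Trbj2-1 clone led control replicate 3 at 5.75%. CDR3 12 (Trbv14, Trbj2-1) led a sample in each of 2 groups, at 5.62% in ANT008 replicate 4 and 5.51% in anti-PD-1 replicate 2. Trbv14 was thus the V gene of the leading clone in 5 of 16 mice, a count made after the clones had been seen and not tested.

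**Figure D1:**
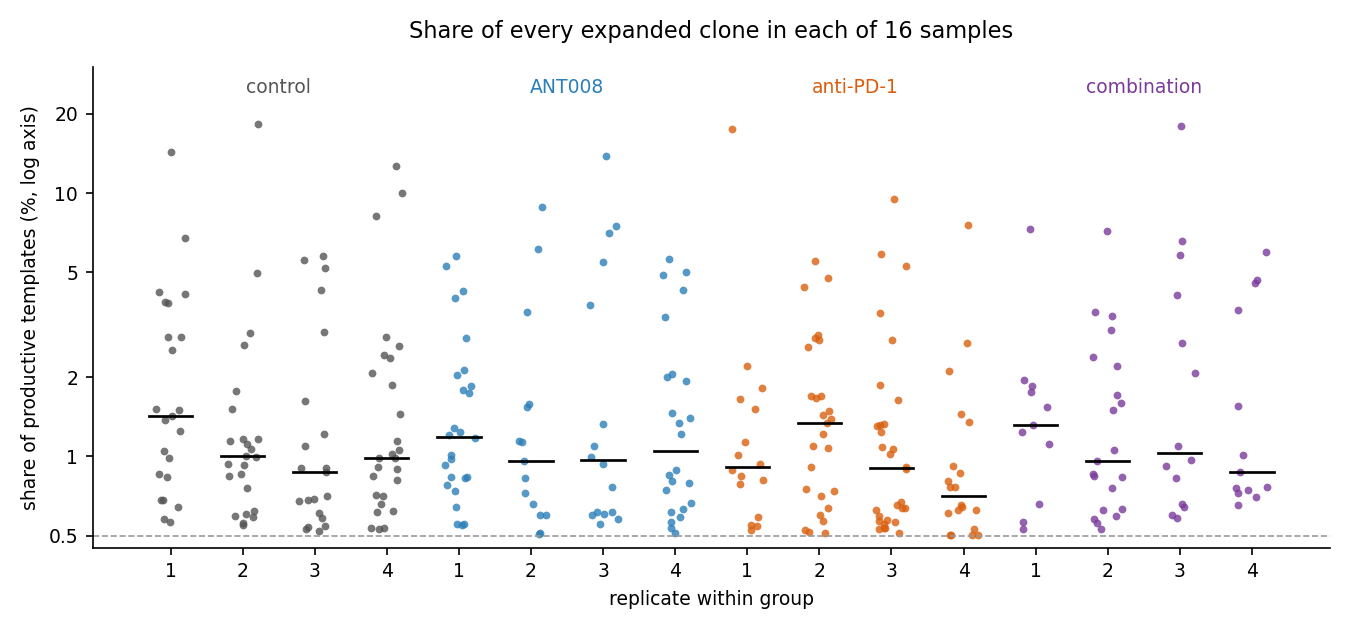
Share of productive templates (%, log axis) of each expanded clone, with 1 point per clone and 1 column per mouse in 4 treatment groups; the black line is the median of the sample's expanded clones and the dashed line the 0.5% limit. Of the 328 clones, 163 lie above 1% and 7 above 10%.

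To ask whether treatment changed how much of the repertoire was expanded, the clones were counted in each mouse. Control mice had 23, 24, 21 and 27 expanded clones and ANT008 mice had 26, 15, 16 and 24. Anti-PD-1 mice had 16, 27, 30 and 20, and combination mice had 11, 21, 14 and 13. The combination was the group with the fewest, since 3 of its 4 mice lay below the lowest control. Compared with 23.75 ± 2.5 in control (SD, n = 4), the combination had 14.75 ± 4.35, a difference of -9 (SE 3.48). By an exact permutation form of Dunnett's test against control the two-sided p was 0.0649, and 0.324 after adjustment over the 15 group comparisons made. ANT008 (-3.5, exact permutation p 0.621, adjusted 0.999) and anti-PD-1 (-0.5, exact permutation p 0.998, adjusted 0.999) did not differ from control beyond the spread between mice. These 3 comparisons share the control mice.

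The summed share of expanded clones was 59.2%, 47.6%, 36.5% and 60.1% in control mice and 45.8%, 29.3%, 46.2% and 42.8% with ANT008. It was 33.3%, 46.4%, 48.8% and 25% with anti-PD-1 and 19.8%, 35.4%, 45.6% and 26.6% in combination mice. The groups overlapped, with control replicate 3 below the highest mouse of every treated group. The combination mean was 31.9% against 50.9% in control, a difference of -19.0 percentage points (SE 7.40, exact permutation p 0.0645, adjusted 0.324). With ANT008 the difference was -9.83 points (exact permutation p 0.431, adjusted 0.913) and with anti-PD-1 -12.5 points (exact permutation p 0.263, adjusted 0.657). No difference in number or summed share passed the threshold. The limit sets how many clones are counted, and with it the size of the difference in number. At 0.25% and at 1% of productive templates in place of 0.5% the combination differed from control by -4.25 clones in each case. At 1% control mice had 15, 12, 8 and 13 clones and combination mice 8, 10, 7 and 6, so that difference stands on smaller counts than the one at 0.5%.

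The share of expanded clones whose CDR3 was found in any of the other 15 mice was the measure in which combination and control mice did not overlap. It was 60.9%, 62.5%, 66.7% and 51.9% in control mice, and 36.4%, 38.1%, 50% and 38.5% with the combination. All 4 combination mice lay below the lowest control. The difference was -19.7 percentage points (SE 6.90) with an exact permutation p of 0.0395, which did not pass after adjustment over the 15 comparisons (0.324). Over the splits of these 8 mice alone the exact permutation p before adjustment was 0.0286, the smallest that 4 against 4 allows. It did not pass after adjustment over the 15 comparisons either. When all samples were subsampled to 7180 productive templates, the depth of the smallest, the difference was -17.3 points (exact permutation p 0.0414, adjusted 0.439), and at a limit of 0.25% it was -7.56 points (exact permutation p 0.388, adjusted 0.780).

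With ANT008 the share found in another mouse was 73.1%, 60%, 68.8% and 54.2%, and with anti-PD-1 it was 81.3%, 66.7%, 70% and 45%. Both groups lay on either side of the control mean of 60.5% (adjusted p 0.999 for each, exact permutation). Mean CDR3 length of expanded clones was 14.11 residues in control, 13.60 in ANT008, 13.58 in anti-PD-1 and 13.76 in combination mice, with no difference past the threshold (adjusted p 0.657, 0.657 and 0.913, exact permutation). Mean inserted nucleotides were 3.25 in control, 2.94 in ANT008, 3.19 in anti-PD-1 and 3.70 in combination mice (adjusted p 0.999 for each, exact permutation).

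**Figure D2:**
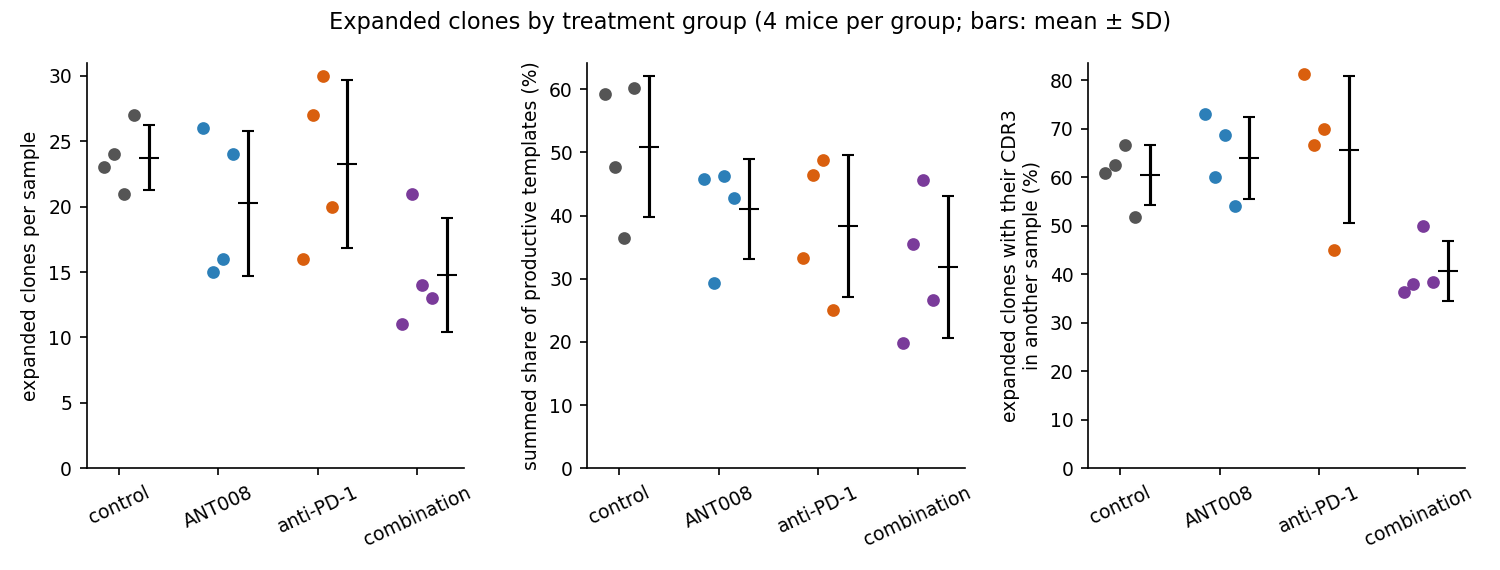
Number of expanded clones per sample, their summed share of productive templates (%) and the percent of them whose CDR3 was in another sample, with 1 point per mouse and bars of mean ± SD for 4 mice per group. Combination mice have the lowest mean in each panel, and only in the third are all 4 of them below every control mouse.

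Expanded clones were next compared with the other productive clones of the same mouse, which differ from them by the chosen template share, in features that the choice did not use. Presence in other mice differed in every mouse. Of the 328 expanded clones, 194 had their CDR3 amino acid sequence in at least 1 other mouse (59.1%, against 32.4% of all productive rearrangements) and 134 were private. Per mouse the percent found elsewhere was 36.4 at the lowest, 60.4 at the median and 81.3 at the highest, and the other clones of the same mice averaged 33.1% ± 2.02 (SD, n = 16). The mean difference was 24.6 percentage points (SE 3.32), and expanded clones were higher in 16 of 16 mice (exact paired permutation p 3.05e-05, the smallest 16 mice allow, adjusted 0.000114 over 15 measures). A CDR3 shared by 2 mice counts in both, so the 16 differences are not fully independent, as the test takes them to be.

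Sharing reached far for some clones. While 62 expanded clones were found in just 1 other mouse, 48 were found in 8 or more, and 17 were found in 14 others. Identity of the CDR3 nucleotides divided the shared clones, since 117 were found elsewhere with identical CDR3 nucleotides, 161 with different ones and 84 with both. Of the 117, 57 had no more than 2 templates in any other mouse, and 26 were expanded in another mouse too. When only different CDR3 nucleotides counted as found, the mean difference between expanded and other clones was 17.4 points (adjusted p 0.000114, exact paired permutation), and when the other mouse had to hold at least 2 templates it was 24.4 points. Any 2 samples had 0.517% to 1.72% of the smaller one's rearrangements in common with identical nucleotides.

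Shared expanded clones also tended to be expanded elsewhere. Among expanded clones found in another mouse, 34.0% ± 15.1 (SD, n = 16) were expanded there, with a range of 11.1% to 75% and a median of 32.1%, against 3.23% ± 1.23 of other clones found in another mouse. A near neighbor, meaning a CDR3 of the same V gene with a single amino acid substitution, was expanded in another mouse for 24.6% ± 6.72 of expanded clones (range 14.3% to 41.7%, median 23.6%) and 1.27% ± 0.525 of others. Both measures were higher for expanded clones in 16 of 16 mice. They use the same share limit that chose the clones and were added after recurrent clones had been noticed in the same samples, so they are given as a description without a test. Both are nevertheless among the 15 measures of the adjustment.

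**Figure D3:**
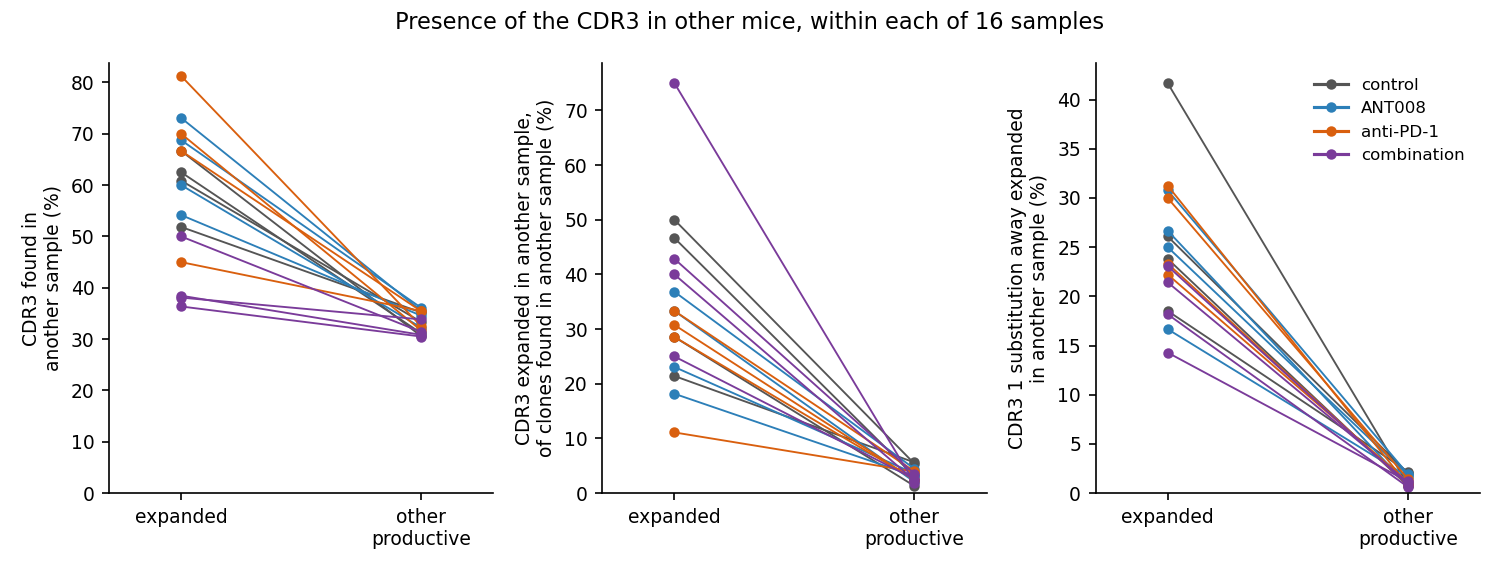
Percent of expanded and of other productive clones whose CDR3 was found in another sample, percent of the found ones that were expanded in another sample, and percent with a CDR3 of the same V gene 1 substitution away that was expanded in another sample; lines join the 2 values of each of 16 mice. In each panel the expanded clones are higher in all 16 mice.

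Private and shared expanded clones differed in their joints. Inserted nucleotides averaged 2.52 ± 0.752 (SD, n = 16 mice) in expanded clones found in another mouse and 4.27 ± 1.06 in those found in none, a difference of -1.75 (SE 0.316). Shared clones had fewer in 13 mice and more in 2 (adjusted p 0.000732, exact paired permutation). Their CDR3 was 13.59 residues long against 13.96 in private clones, which did not pass after adjustment (adjusted p 0.0805, exact paired permutation). As a whole, expanded clones carried 0 to 15 inserted nucleotides, with 30 of them having none, 170 having 1 to 3 and 24 having 8 or more.

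Several CDR3 nucleotide sequences for the same CDR3 were seen inside single mice as well. Of the 328 expanded clones, 76 had their CDR3 encoded by 2 or more CDR3 nucleotide sequences in the same mouse, and 3 clones by 5. The number of CDR3 nucleotide sequences per CDR3 was 1.33 ± 0.152 for expanded and 1.10 ± 0.0312 for other clones (SD, n = 16), higher in 15 of 16 mice. Entries of any template number were counted, so this number can rise with the template share that chose the clones. What produced the further sequences was not tested, so they are not read as separate joining events. The measure was chosen after the data had been seen, and it is given as a description without a test. In 3 mice a CDR3 was expanded more than once. Control replicate 1 had 3 expanded forms of CDR3 1 (forms 1, 4 and 5 above) summing to 9.10%, control replicate 4 had 2 forms of CDR3 2 summing to 5.28% and ANT008 replicate 2 had 2 forms of it summing to 2.27%.

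Counts of full rearrangements do not measure the number of CDR3 nucleotide sequences. For 293 expanded clones the same mouse held further entries with the same CDR3, 1739 in all, and 1552 of these (89.2%) had the clone's own CDR3 nucleotides and differed only upstream of the CDR3. Such copies mostly had 1 template, never more than 22, and 740 of them were assigned another V gene. They made up 0.202% to 0.641% of productive templates per sample. What produced them was not tested. No expanded clone was itself such a copy, because no 2 expanded clones of a mouse shared CDR3 nucleotides.

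The clones that recurred between mice were then described one by one. A set of 17 CDR3 sequences was expanded in 2 or more mice, accounting for 63 of the 328 expanded clones, and 16 of the 17 had more than 1 nucleotide form among their expanded clones. CDR3 1, 2, 3, 5, 6 and 7 also had a form that was expanded in 2 or more mice. The CDR3 with a single form was CDR3 8 (Trbv13-1, Trbj2-2, 14 residues), which had no inserted nucleotide. Of the 17, 14 were expanded in at least 2 groups and 3 in all 4 groups. Most pairs of the 16 mice lie in different groups, so spanning groups is not read as a result. Trbj2-7 was used by 7 of the 17 (33.5% of all expanded clones used it) and Trbv13-3 by 5 (14.3% of all expanded clones). Every mouse had 1 to 7 recurrent expanded clones, with a median of 3, and their summed share ran from 1.37% in ANT008 replicate 3 to 29.9% in control replicate 1, with a median of 7.59%. Their shares are part of what chose them and carry no test.

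CDR3 1 was found in 15 of 16 mice with 15 different CDR3 nucleotide sequences. Summed over all its forms it held 9.14%, 1.18%, 1.05% and 0.00268% of productive templates in control mice, and 1.10%, 0.425%, 0.121% and 4.32% with ANT008. With anti-PD-1 it held 0.960%, 1.37%, 1.56% and 0.265%, and with the combination 2.01%, 0.310%, 0% and 0.523%. The absence in combination replicate 3 allows a share of up to 0.00511%. High and low values occurred in every group. No expanded form of it had more than 2 inserted nucleotides.

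CDR3 2 was found in 14 mice with 10 CDR3 nucleotide sequences. Control mice held 0.138%, 1.17%, 0.00787% and 5.38%, and ANT008 mice held 0.0132%, 2.33%, 0.884% and 1.20%. Anti-PD-1 mice held 1.82%, 0%, 0.127% and 0%, where the zeros allow up to 0.00949% and 0.0418%, and combination mice held 1.55%, 1.10%, 0.360% and 6.04%. It was thus above 1% in mice of every group. Forms 1 and 6 had no inserted nucleotide, and form 1 was expanded in 4 mice.

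CDR3 3 was expanded in mice of all 4 groups and CDR3 4 in mice of 3. CDR3 3 was found in 12 mice and exceeded 4% in 1 mouse each of ANT008 (5.83%), anti-PD-1 (5.92%) and combination (4.59%), with 1.54% as its highest control value. CDR3 4 was found in 15 mice with 24 CDR3 nucleotide sequences, the most of these 4 CDR3 sequences, and its highest value was 2.83% in anti-PD-1 replicate 4. In combination mice it reached 0.487% at most and no form was expanded.

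The remaining 13 recurrent CDR3 sequences were expanded in 2 to 4 mice. CDR3 5 and CDR3 6 were expanded in 4 mice each, CDR3 7 in 3, and CDR3 8 to CDR3 17 in 2 each. Besides those already named, they were CDR3 9 (Trbv13-3, Trbj2-5) in control replicates 2 and 3, CDR3 10 (Trbv13-1, Trbj2-7) in combination replicates 1 and 2, CDR3 16 (Trbv2, Trbj2-7) in control replicate 1 and anti-PD-1 replicate 1 and CDR3 17 (Trbv1, Trbj1-4) in control replicate 2 and anti-PD-1 replicate 3. Some of these were rare outside the mice that expanded them. CDR3 11 held 18.2% of combination replicate 3 over all its entries and 0.578% of ANT008 replicate 1, was at 0.243% in ANT008 replicate 3, and was not seen in the other 13 mice. CDR3 14 (Trbv12-2, Trbj1-5) was found only in control replicate 3 and anti-PD-1 replicate 3, and was expanded in both.

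**Figure D4:**
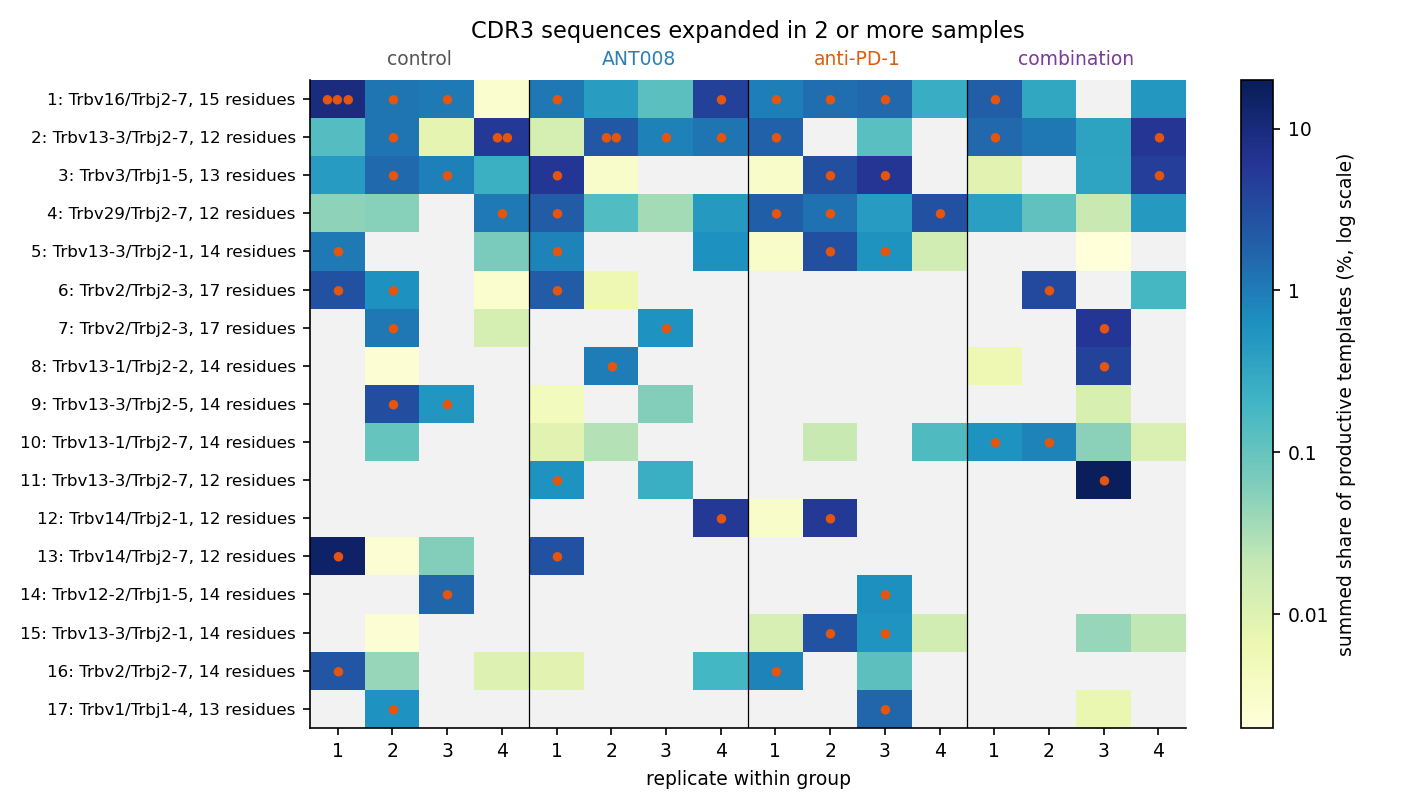
Summed share of productive templates (%, log color scale) of the 17 CDR3 sequences expanded in 2 or more samples, with 1 row per CDR3 named by V gene, J gene and length, and 1 column per mouse; grey means not seen and each orange dot is 1 expanded clone. Rows are ordered by the number of samples with the CDR3 expanded, and dots of the first 3 rows fall in all 4 groups.

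Single substitutions linked expanded CDR3 sequences into families. Joining CDR3 sequences of the same V gene and length that differed at 1 residue gave 21 families with 51 CDR3 sequences and 85 expanded clones, grouped after the clones had been seen. Of these families 20 spanned at least 2 mice and 18 at least 2 groups, and 19 varied at 1 position. Spanning groups is again not read as a result. The largest, of Trbv13-3 and Trbj2-1, contained CDR3 5, CDR3 15 and 3 more CDR3 sequences, which differed only at residue 5 (glycine, proline, aspartic acid, serine or glutamic acid) and together gave 9 expanded clones in 7 mice. CDR3 2, CDR3 11 and 2 further CDR3 sequences formed a family with 14 expanded clones in 11 mice. CDR3 3 and 3 variants of it at residue 5, with tyrosine, alanine or arginine in place of leucine, gave 9 clones in 7 mice. The alanine variant was the leading clone of anti-PD-1 replicate 4.

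V gene use was tested for every V gene, with each clone counted once and the mouse as the unit. An exact paired permutation test called 13 of 33 V genes (39.4%, with 3 or 9.09% higher and 10 or 30.3% lower among expanded clones), and edgeR's quasi-likelihood test on clone numbers called 5 (15.2%), all of them among the 13, with 2 (6.06%) higher and 3 (9.09%) lower by both. Genes are described as higher or lower here where both tests called them, because a gene without an expanded clone can only be lower, and the permutation test calls it once enough mice hold it among their other clones. Trbv23, Trbv30 and Trbv21 (lower in 16 mice each) and Trbv27 (lower in 7) were such genes, with edgeR adjusted p of 0.153, 0.379, 0.440 and 0.947. Trbv5, Trbv17 and Trbv12-1 (lower) and Trbv2 (8.18% against 4.95%) were also called by permutation alone, with edgeR adjusted p of 0.0734, 0.132, 0.296 and 0.113.

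Trbv13-3 was the V gene most raised. It was used by 47 expanded clones in all 16 mice, in 4.17% of expanded clones at the lowest, 12.8% at the median and 38.5% at the highest, in combination replicate 4. Its mean of 14.7% ± 8.14 stood against 5.63% ± 0.435 of other clones (SD, n = 16), and it was higher in 15 of 16 mice (exact paired permutation adjusted p 0.000604, edgeR log2 fold 1.34, adjusted p 0.000116). The neighboring and closely related Trbv13-2 went the other way, with 3.99% of expanded against 10.1% of other clones (adjusted p 0.00604 by exact permutation and 0.0386 by edgeR). Trbv13-1, the third of these related genes, was at 8.51% against 6.23% (adjusted p 0.309, exact permutation).

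Trbv14 was used by 22 expanded clones in 11 mice, at 5.85% against 2.63% (exact permutation adjusted p 0.0449, edgeR 0.0121). It was higher in 11 of 16 mice. Of its clones 7 lay in each of the control, ANT008 and anti-PD-1 groups and 1 in the combination. These groups averaged 23.75, 20.25, 23.25 and 14.75 expanded clones per mouse, and the split was not tested. The Trbv14 call was lost at a limit of 1% (adjusted p 0.110, exact permutation) and when any of 11 single mice was left out (up to 0.0892). Trbv12-2 was lower at 1.44% against 5.23% (adjusted p 0.00235 by exact permutation, 0.0386 by edgeR). Trbv31, the V gene located beyond the constant regions in inverted orientation, was lower at 0.208% against 2.87%, with a single expanded clone (adjusted p 0.000504 by exact permutation, 0.00715 by edgeR). Of the other frequent V genes, Trbv19 (34 clones, 10.3% against 7.86%) had an adjusted p of 0.258, Trbv16 (30 clones, 8.98% against 5.46%) of 0.0626 and Trbv3 (25 clones, 7.90% against 7.87%) of 1 by exact permutation.

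Among J genes the exact paired permutation test called 7 of 14 (50%) and edgeR 5 (35.7%), all 5 shared. Trbj2-7 was used by 110 expanded clones, in 20.8% of the expanded clones of a mouse at the lowest, 29.7% at the median and 50% at the highest. It averaged 33.5% ± 10.4 against 21.1% ± 0.880 of other clones (SD, n = 16) and was higher in 16 of 16 mice (exact permutation adjusted p 0.000427, edgeR log2 fold 0.66, adjusted p 0.000109). The call was lost in a pair of alternatives, since weighted by templates the difference of 9.11 points had an adjusted p of 0.116, and against other clones with at least 2 templates the difference of 7.74 points had one of 0.0531 (exact permutation). Trbj1-5 was also higher (6.20% against 3.12%, adjusted p 0.0496 by exact permutation and 0.0207 by edgeR). Its call was lost at a limit of 1% (adjusted p 0.191, exact permutation) and in the same 2 other settings. It was also lost when any of 11 single mice was left out (adjusted p up to 0.0981, exact permutation).

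Trbj2-5 (5.68% against 11.3%), Trbj1-6 (0.417% against 3.07%) and Trbj1-1 (3.35% against 8.78%) were lower by both tests, with adjusted p of 0.00228, 0.00228 and 0.0122 by exact permutation. Trbj1-1 had 4 expanded clones in control mice, 7 in ANT008 mice and 0 in the others. These clones lay in 5 mice, and the split by group was not tested. Trbj2-4 and Trbj2-6 were called lower by permutation alone (edgeR adjusted p 0.0529 and 0.893). Trbj2-1 (46 clones, 13.7% against 13.0%) and Trbj2-3 (27 clones, 7.82% against 8.55%) gave adjusted p of 0.640 and 0.830 by exact permutation. The Trbj2 cluster as a whole took 72.3% ± 7.40 of expanded and 67.4% ± 0.797 of other clones, higher in 11 of 16 mice (exact paired permutation p 0.0129, adjusted 0.0322 over the 15 measures). The call was removed by each of 6 of 16 left-out mice, and it rests on an adjustment that counts measures given here without a test.

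The 328 clones used 128 pairs of V and J genes, and the most frequent were Trbv16 with Trbj2-7 (20 clones), Trbv13-3 with Trbj2-7 (19) and Trbv19 with Trbj2-7 (17). The Trbv19 pair held 17 different CDR3 sequences, whereas the 9 clones of Trbv3 with Trbj1-5 held just 4. A D segment was assigned as Trbd1 in 150 clones and Trbd2 in 105, and none was resolved in 73. Trbd1 made up 58.5% of resolved D segments in expanded and 51.9% in other clones (adjusted p 0.106, exact paired permutation). In 10 of the 105 clones Trbd2 was paired with a Trbj1 gene, which lies upstream of it in the locus. D assignments rest on few bases and their accuracy was not tested.

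**Figure D5:**
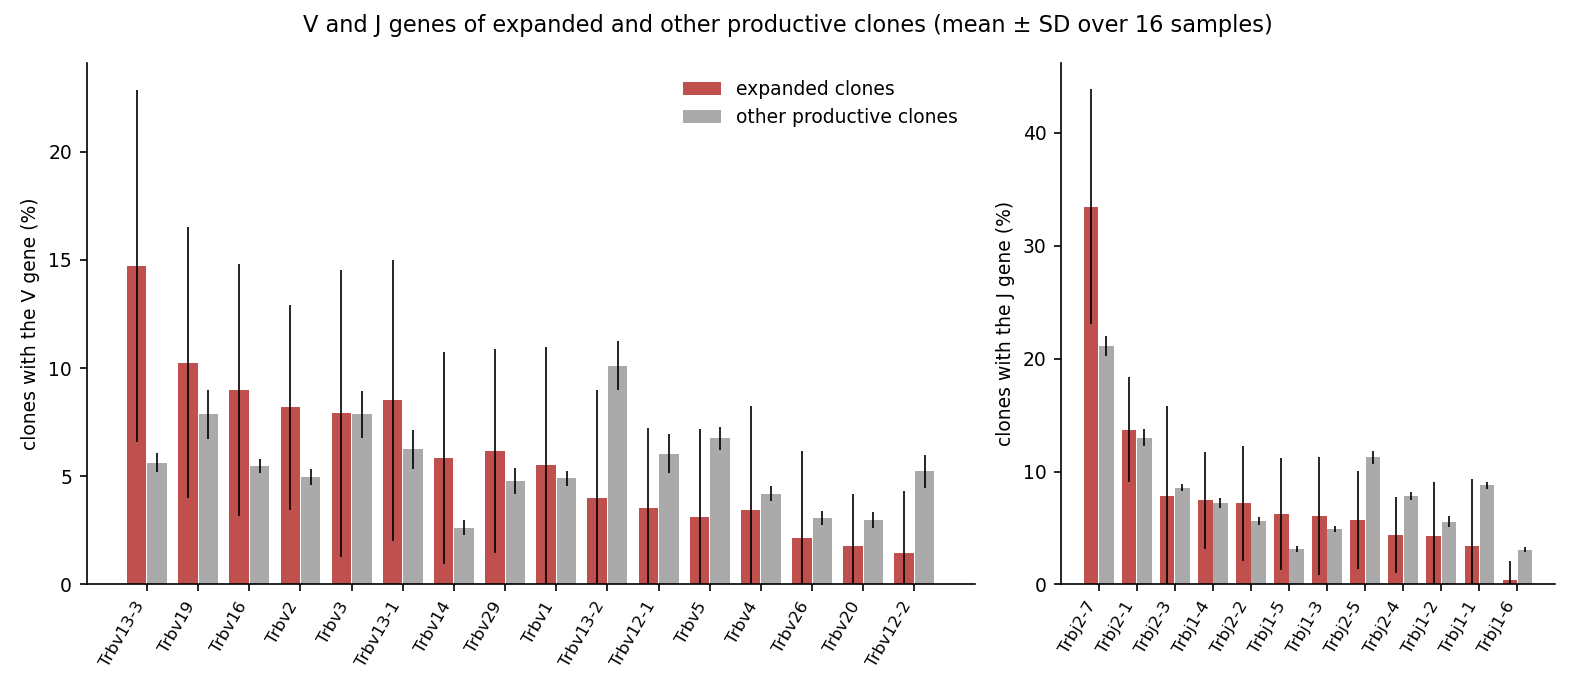
Percent of expanded (red) and other productive (grey) clones that use each V gene (left, genes with 6 or more expanded clones) and each J gene (right, genes with any expanded clone), as mean ± SD over 16 samples. Trbv13-3 at 14.7% against 5.63% and Trbj2-7 at 33.5% against 21.1% stand out.

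The CDR3 of expanded clones was 10 to 18 residues long, and 277 of the 328 had 12 to 15. The mean length per mouse was 13.76 residues, a difference of -0.24 residues from other clones, and it was shorter in 13 of 16 mice (exact paired permutation p 0.0291, adjusted 0.0623). Inserted nucleotides (3.27 against 3.56, adjusted p 0.147), clones with no insertion (10.2% against 8.90%, 0.721) and bases trimmed from V (2.42 against 2.64, 0.153), D (5.59 against 5.56, 0.792) and J (3.12 against 2.84, 0.106) did not pass the threshold either (exact paired permutation). The ends of the CDR3 follow the gene segments, as 264 clones began with cysteine, alanine, serine and serine, 18 began with cysteine, threonine, cysteine and serine, all of them Trbv1 clones, and 83 ended in tyrosine, glutamic acid, glutamine, tyrosine and phenylalanine, the end encoded by Trbj2-7.

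In the middle of the CDR3, with the first 4 and last 4 residues set aside, the exact paired permutation test called 7 of 20 residues (35%) and edgeR 4 (20%), all 4 shared. Glutamic acid made up 6.69% of middle residues in expanded and 4.86% in other clones (adjusted p 0.0350 by exact permutation, 0.00403 by edgeR). The 11 expanded clones of CDR3 1 gave 11 of the 131 middle glutamic acids, and the difference was not separated from recurrence or V gene use. Tyrosine was at 6.70% against 5.08% (0.0137 and 0.0335), but the first residue of the Trbj2-7 end lies 5 from the end of the CDR3 and so falls in the middle. The 83 clones with that end gave 83 of the 124 middle tyrosines, and the tyrosine difference is therefore not separate from that of Trbj2-7. Tryptophan was lower at 1.99% against 3.15% (0.0176 and 0.0290). Cysteine was not seen there in the 328 expanded clones and made up 0.211% in others, and although both tests called it no direction is read from a count of 0. Methionine, valine and threonine were called lower by permutation alone, with edgeR adjusted p of 0.154, 0.0578 and 0.145. Tyrosine and glutamic acid lost their calls at a limit of 1%, when weighted by templates and against other clones with at least 2 templates. Glutamic acid also lost its call when any of 5 single mice was left out (adjusted p up to 0.0700, exact permutation).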

How the data were processed

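TCRβ repertoires were sequenced by Adaptive Biotechnologies with the immunoSEQ assay, in which multiplexed V and J primers amplify the CDR3 and a synthetic repertoire corrects for unequal amplification. The deposited values give, for each unique 87-nucleotide rearrangement of a sample, its reading frame, V, D and J calls, CDR3 amino acid sequence, inserted and trimmed bases and the number of its templates, an integer count estimated by the service. Fractions of all and of productive templates were also deposited by the authors and were not used as such. Shares were computed from the counts. Other deposited fields, such as gene names and sequences, were used as given. Columns for sequencing reads were empty. The aligner version and genome build are not given in the sources used here, so no coordinates are printed. All 33 V gene names matched symbols of the GRCm38.p6 annotation.

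Groups were taken from the treatment in the sample labels. The clones, lists and measures were chosen with earlier results of these data known. Group means were compared with control by an exact permutation form of Dunnett's test over 63063000 assignments of the 16 samples, with Benjamini-Hochberg adjustment over 15 comparisons (5 measures of 3 treated groups). Nothing says that samples were processed in batches, and p-values measure the spread between these mice. Expanded and other clones were compared within mice by sign flips of the 16 differences (65536, exact, two-sided), adjusted over 15 measures, or over all V genes, J genes or residues. The 15 measures include 2 added ones that are given without a test, and the count of full rearrangements. Each of these had the smallest p that 16 mice allow, which lowers the adjusted p of the other measures. The threshold was an adjusted p of 0.05. edgeR's quasi-likelihood test on clone numbers with the sample as a block was planned for V genes and added for J genes and residues after the data had been seen, since the permutation test alone can call genes without expanded clones lower. Clones were identified by their genes and CDR3 nucleotides. Named clones were the leading one of each sample, each CDR3 expanded in 2 or more samples, the extremes of insertion and sharing and those beside the limit, and named genes and residues were those called and the most frequent. Alternatives changed the limit, the clone definition, the denominator, the depth (7180 templates, mean of 20 draws), the weighting and the clones compared with. Total templates per sample were 11317 to 99411, so the limit corresponded to 36 to 363 templates. Intervals cover counting error only. Shares of 0 were given an upper limit of 3 templates. Scripts were tested on simulated data. Software was edgeR 4.0.16 in R 4.3.3 and Python 3.11.15 (scipy 1.17.1, numpy 2.4.6, numba 0.67.0, pandas 2.3.3, networkx 3.6.1, matplotlib 3.10.9).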

Additional observations from a re-analysis of the deposited data

Results flagged for a closer look

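Among combination mice, the percent of expanded clones whose CDR3 was in another sample was 50 in replicate 3, against 36.4 to 38.5 in the other 3 mice. The gap to the nearest mouse was 0.846 of the group's range, past the 95% limit of Dixon's test for 4 samples. With 20 groups tested, about 1 in 20 is flagged by chance. Combination replicate 3 also held the second largest expanded clone of all mice, of Trbv13-3 and Trbj2-7.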

How the results depend on the processing

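Expanded clones exceeded other clones in presence elsewhere under every alternative run for it, from 17.4 to 30.6 percentage points, and the deficit of insertions in shared clones also held. The 15 group comparisons stayed without a call under each alternative. Of the comparisons, those that changed follow, and the causes were not tested. Counting rearrangements of the same CDR3 together, or a limit of 0.25%, turned the anti-PD-1 difference in number to 0.25 clones, and the latter turned the combination difference in insertions to -0.165. At 0.25% the calls gained were CDR3 length (-0.301 residues), insertions (-0.417), J trimming (0.234 bases), Trbd1 (5.08 points) and length of shared against private clones (-0.389), and against clones with 1 template length was also called (-0.319). The Trbj2 cluster lost its call at 1% (6.85 points), weighted by templates (7.12) and against clones with at least 2 templates (2.82). Weighting turned clones without insertion to -1.19 points and without a D call to -1.95, and against clones with at least 2 templates the former was -0.548 and D trimming -0.129 bases. V gene calls fell from 13 to 5 with edgeR. J gene calls fell from 7 to 4 weighted and to 2 against clones with at least 2 templates. Residue calls fell from 7 to 3 at 1% and against clones with at least 2 templates, and to 4 weighted and with edgeR.

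With each mouse left out in turn, ranges that crossed 0 or a threshold were -2.75 to 1.92 clones for the anti-PD-1 number, -0.347 to 0.211 for its insertions, -0.0479 to 0.0915 bases for D trimming and -0.556 to 1.99 points for clones without insertion. The Trbj2 cluster ranged from 3.73 to 5.60 points, CDR3 length from -0.288 to -0.188, insertions from -0.388 to -0.234, J trimming from 0.222 to 0.380, Trbd1 from 4.76 to 8.40, length of shared against private clones from -0.451 to -0.286 and V gene calls from 8 to 13.

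Same-numbered mice did not meet the criterion for pairing, since 10 of 24 pairs had a correlation over 0.1 (median 0.0626, range -0.303 to 0.740, against a median of 0.0124 in other pairs). With the number as a replicate block the combination difference in presence elsewhere was -19.7 points with an exact permutation p of 0.0178 (adjusted 0.267), and no group comparison was called, among them the combination number (-9) and summed share (-19.0 points). The number of expanded clones per mouse, 11 to 30, limits every gene and residue comparison.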

Other observations

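Expanded clones of anti-PD-1 replicate 4 stood on the fewest templates (1795 in all, against 35402 in the sample with the most). Of its 20 expanded clones 45% had their CDR3 in another mouse, and 1 belonged to a CDR3 expanded in other mice.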
